A study of Equus caballus with 10 samples.

Results

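CatSper is the calcium channel of the sperm tail. The measured part of it comprised 9 of the 10 CatSper genes looked for, on a microarray with 30559 probe sets, of which the annotation gave 16661 distinct gene symbols. Members were the probe sets with exactly 1 gene symbol and that symbol among CATSPER1, CATSPER2, CATSPER3, CATSPER4, CATSPERB, CATSPERD, CATSPERE, CATSPERG, CATSPERZ and EFCAB9. Each of the 9 measured genes had 1 such probe set, so no choice between probe sets was needed. CATSPERZ had none and was not analysed here.

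The channel opens when the inside of the sperm cell becomes alkaline and lets calcium into the principal piece of the tail. The calcium drives hyperactivated motility, the whip-like beat needed to reach and enter the egg. CATSPER1 to CATSPER4 form the pore, CATSPERB, CATSPERD, CATSPERE and CATSPERG carry large extracellular domains around it, and EFCAB9, known from mouse sperm to pair with CATSPERZ, is a calcium-binding protein on its inner side. In mice, males that lack a pore subunit are infertile. Ejaculated sperm transcribe little or nothing, so their RNA is largely left over from spermatids.

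RNA came from ejaculated spermatozoa of 10 warmblood stallions of breeding age (Equus caballus) kept at an insemination centre, with 1 Affymetrix array per stallion. The layout crossed season with fertility class: the autumn-high group (stallions 1 and 2), the spring-high group (stallions 3, 4 and 9), the autumn-low group (stallions 5 and 6) and the spring-low group (stallions 7, 8 and 10), where high and low stand for the fertility class. The labels name no genotype, drug or other treatment, and date every collection of semen to the breeding season, that of the autumn animals too. They do not say what measure of fertility was used, and the array title of stallion 9 begins like those of autumn although its season field says spring. Each array is a different animal, so p-values measure the spread between stallions and between sample handling together.

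Fixed marker genes were read beside the tissue label. The 10 markers of spermatozoa and late spermatids averaged 10.34 on the log2 signal scale, with array means from 9.11 to 11.30, and gene means from 5.42 for LDHC to 12.79 for PRM1. Averages were 5.37 for 7 of 8 leukocyte markers, 5.38 for 3 of 6 epithelial markers and 5.33 for 6 markers of earlier germ cells. The average was 5.09 for 4 of 5 Sertoli and Leydig cell markers, and the others listed were not measured. Gene means in these 4 lists ran from 4.24 for CD3E to 6.40 for PTPRC, both leukocyte markers. The averages describe those probe sets, do not rank the lists against each other and give no shares of cells. The arrays of stallions 2, 9 and 10 stood apart. Their medians over all probe sets lay between 5.07 and 5.10, against 5.24 to 5.49 on the other 7, and 2764 to 2920 of their probe sets sat on the lowest deposited value of 4, against 842 to 2129. The sperm marker mean ran from 9.11 to 9.54 on these 3 arrays and from 10.44 to 11.30 on the other 7. In bulk RNA, fewer cells of a type and less RNA per cell cannot be told apart.

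No CatSper gene passed the test for season, fertility class or their interaction. The genes nevertheless differed in how much they varied between stallions, from 1.57-fold between the lowest and the highest animal for CATSPER1 to 8.88-fold for CATSPERB. The SD over the 10 arrays had a median of 0.49 over the 9 genes, against 0.35 over all probe sets. SDs of the 10 sperm and late spermatid markers ran from 0.31 for LDHC to 1.29 for PRM2. CATSPERB, CATSPER3 and EFCAB9 were high and low in largely the same animals, and these 3 genes were highest in stallion 8. Signals of different probe sets depend on how well each binds its target, so the levels below are compared between stallions and never between genes.

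**Figure D1:**
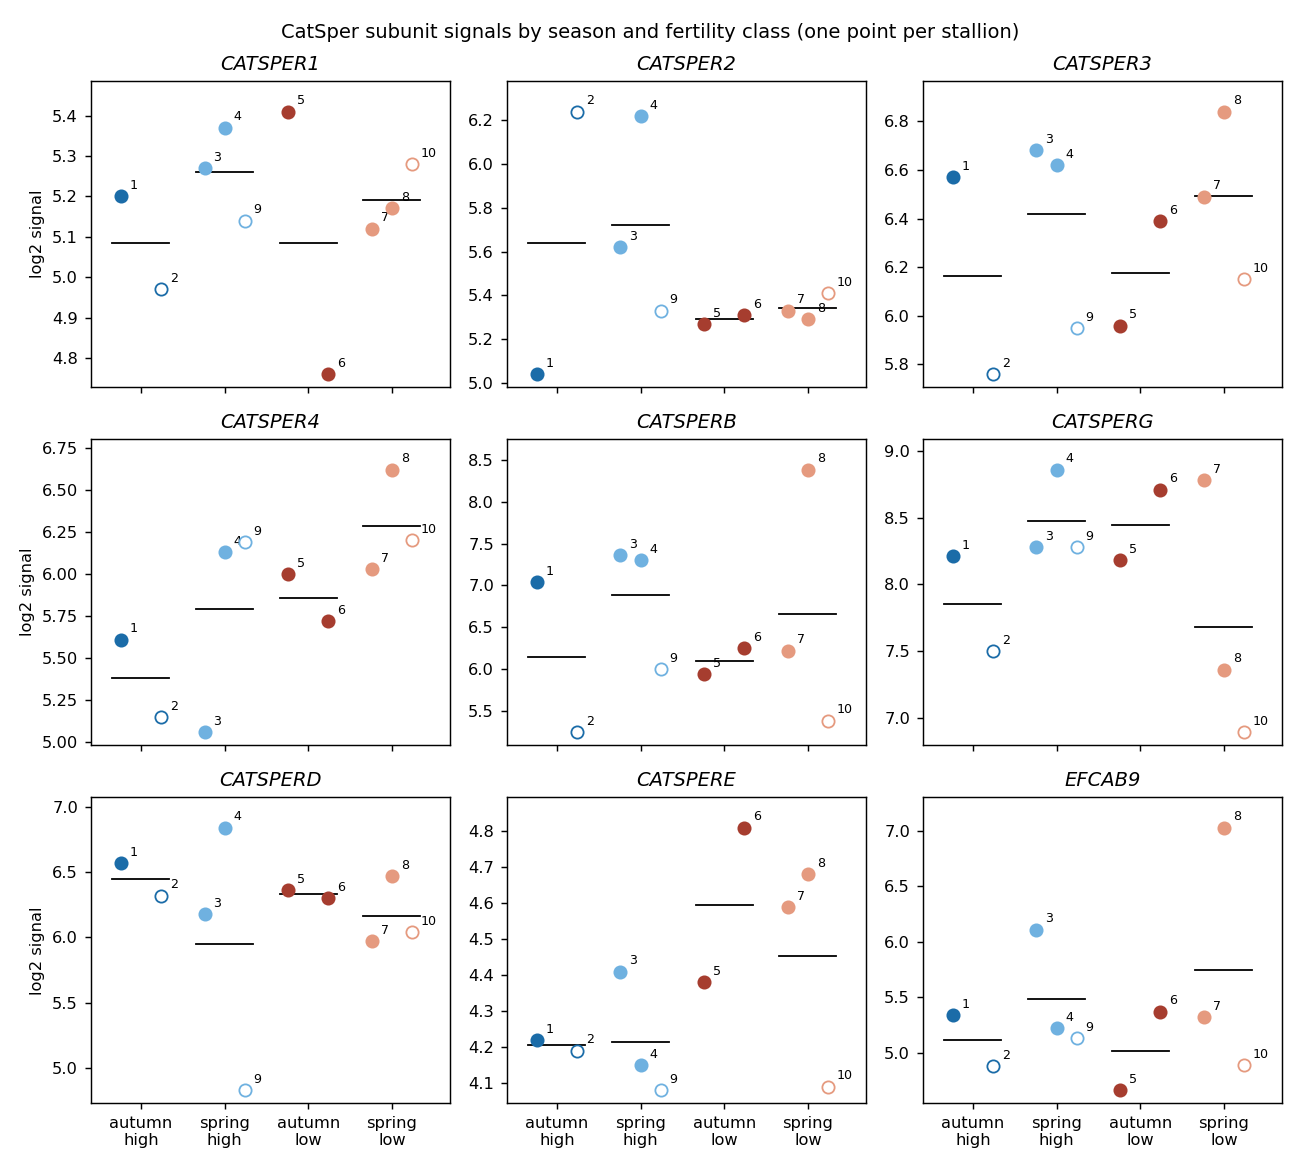
Log2 signal (vertical axes, each gene on its own scale) of the 9 measured CatSper genes in the 4 season by fertility groups. Each point is 1 stallion with its number, open points are stallions 2, 9 and 10, and bars are group means. For every gene autumn overlapped with spring and high with low fertility when each was taken over all its stallions, and stallion 8 stood highest for CATSPER3, CATSPER4, CATSPERB and EFCAB9.

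Among the pore-forming genes, CATSPER1 varied least. Its log2 signal was 5.20 and 4.97 in the autumn-high group, 5.27, 5.37 and 5.14 in the spring-high group, 5.41 and 4.76 in the autumn-low group, and 5.12, 5.17 and 5.28 in the spring-low group. The highest and the lowest stallion, 5 and 6, belonged to the same group, so the spread within the autumn-low group covered that of all others. The mean of spring exceeded autumn by 0.14 (SE 0.16, 95% interval -0.23 to 0.51), and low fertility stood at -0.04 relative to high (SE 0.16, interval -0.41 to 0.34), neither larger than the spread between stallions (limma, each adjusted p = 1).

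CATSPER2, another pore subunit, had a different pattern. Its values were 5.04 and 6.24 in the autumn-high group, and 5.62, 6.22 and 5.33 in the spring-high group. In low fertility it stood at 5.27 and 5.31 in autumn and at 5.33, 5.29 and 5.41 in spring. The low-fertility stallions thus lay within a narrow band while the high-fertility ones spread on both sides of it, with stallions 2 and 4 high and stallion 1 the lowest of all. The low minus high difference was -0.365 (SE 0.26, interval -0.95 to 0.22, limma adjusted p = 1). Without stallion 2 the difference was -0.065, and the remaining autumn-high stallion, at 5.04, stood below both autumn-low animals.

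CATSPER3 read 6.57 and 5.76 in the autumn-high group, 6.68, 6.62 and 5.95 in the spring-high group, 5.96 and 6.39 in the autumn-low group, and 6.49, 6.84 and 6.15 in the spring-low group. Stallion 8 was highest and stallion 2 lowest, and within each of the groups holding stallion 2, 9 or 10 that array was the lowest. Spring minus autumn was 0.285 (SE 0.24, interval -0.27 to 0.84) and low minus high fertility was 0.04 (SE 0.24), both with adjusted p = 1 in limma. The difference by fertility had the opposite sign, at -0.19, without stallions 2, 9 and 10, and the season difference was 0.08 without stallion 2.

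CATSPER4, the remaining pore gene, had the smallest unadjusted p of the 9 genes for both season and fertility class. Its values were 5.61 and 5.15 in the autumn-high group and 5.06, 6.13 and 6.19 in the spring-high group. They were 6.0 and 5.72 in the autumn-low group, and 6.03, 6.62 and 6.20 in the spring-low group. All 5 low-fertility stallions thus stood at or above 5.72, while 3 of the high-fertility ones lay below that value and stallions 4 and 9 lay above it, so the classes overlapped. The group means ran from 5.38 ± 0.33 (SD, n = 2) in the autumn-high group over 5.79 ± 0.64 (n = 3) in the spring-high group and 5.86 ± 0.20 (n = 2) in the autumn-low group to 6.28 ± 0.30 (n = 3) in the spring-low group. The spring-high group overlapped with each of the others. The spring-low mean lay 0.42 above the autumn-low mean (SE 0.37, interval -0.40 to 1.25). Low minus high fertility was 0.485 (SE 0.26, interval -0.10 to 1.07, unadjusted p = 0.0934) and spring minus autumn was 0.42 (SE 0.26, interval -0.17 to 1.0, unadjusted p = 0.14), neither past the threshold in limma (each adjusted p = 1). The low minus high difference was 0.48 in autumn and 0.49 in spring. The season difference was 0.18 with stallion 9 counted in autumn and 0.225 without stallions 2, 9 and 10.

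CATSPERB, one of the subunits with a large extracellular part, varied most. It stood at 7.04 and 5.24 in the autumn-high group, at 7.36, 7.30 and 6.0 in the spring-high group, at 5.94 and 6.25 in the autumn-low group, and at 6.22, 8.39 and 5.38 in the spring-low group. Stallions 8, 3, 4 and 1 were the 4 highest, and stallions 2 and 10 the lowest. The spring-low group alone ran from 5.38 to 8.39, almost the range of all 10 animals, and its SD was 1.55 (n = 3). Against that spread the season difference of 0.66 (SE 0.61, interval -0.72 to 2.04) and the fertility difference of -0.13 (SE 0.61, interval -1.51 to 1.24) had adjusted p = 1 in limma. The season difference was 0.21 without stallion 2, 0.23 without stallion 8 and 1.11 without stallion 1. These were the widest intervals among the 9 genes in both comparisons.

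CATSPERG, also an extracellular subunit gene, was the member with the largest interaction. From autumn to spring its mean went from 7.86 ± 0.50 (SD, n = 2) to 8.47 ± 0.33 (n = 3) in high fertility and from 8.445 ± 0.37 (n = 2) to 7.68 ± 0.98 (n = 3) in low fertility. The stallions behind these means stood at 8.21 and 7.50, at 8.28, 8.86 and 8.28, at 8.18 and 8.71, and at 8.78, 7.36 and 6.89. Stallions 10 and 8 of the spring-low group were the lowest of all, yet stallion 7 of that group was the second highest. The interaction was -1.39 (SE 0.73, interval -3.04 to 0.26, unadjusted p = 0.0895) and did not pass in limma (adjusted p = 1). It was -0.735 without stallions 2, 9 and 10. The 10 sperm and late spermatid markers also all had negative interactions, with a median of -1.0 and 0 past the threshold, and their part in that of CATSPERG was not tested. Stallion 8, highest for CATSPERB, was among the lowest here, so the extracellular subunit genes did not share 1 order of stallions.

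CATSPERD read 6.57 and 6.32 in the autumn-high group, 6.18, 6.84 and 4.83 in the spring-high group, 6.36 and 6.30 in the autumn-low group, and 5.97, 6.47 and 6.04 in the spring-low group. All stallions but 9 lay between 5.97 and 6.84. The season difference of -0.33 (SE 0.35, limma adjusted p = 1) turned to 0.22 when stallion 9 was counted in autumn, as its title begins, and was -0.05 without that stallion.

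CATSPERE stayed within 1 log2 unit of the floor of 4 on 10 of 10 arrays, although none of its values sat on the floor itself. It stood at 4.22 and 4.19 in the autumn-high group, 4.41, 4.15 and 4.08 in the spring-high group, 4.38 and 4.81 in the autumn-low group and 4.59, 4.68 and 4.09 in the spring-low group. The 4 highest stallions, 6, 8, 7 and 3, included 3 of low fertility, but stallion 10 of that class was near the lowest. Low minus high was 0.315 (SE 0.17, interval -0.08 to 0.71, unadjusted p = 0.104, limma adjusted p = 1).

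EFCAB9, the calcium sensor gene, stood at 5.34 and 4.88 in the autumn-high group, at 6.11, 5.22 and 5.13 in the spring-high group, at 4.66 and 5.37 in the autumn-low group, and at 5.32, 7.03 and 4.89 in the spring-low group. Stallion 8 was again far above the others and stallion 3 second, while the other 8 lay between 4.66 and 5.37. The array medians over all probe sets ran from 5.07 to 5.49. On 3 arrays EFCAB9 lay within 1 log2 unit of the floor of 4. The season difference was 0.55 (SE 0.42, interval -0.40 to 1.51) and the fertility difference 0.08 (SE 0.42, interval -0.87 to 1.04), both with adjusted p = 1 in limma. Without stallion 8 the season difference was 0.23.

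For season, 0 of the 9 genes passed at an adjusted p under 0.05, where 0.00327% of all 30559 probe sets did, and 0 reached an unadjusted p under 0.05, where 4.18% of all probe sets did. The mean was higher in spring for 6 genes and lower for 3. The median difference was 0.14 over the 9 genes and -0.05 over all probe sets, of which 41.6% had the higher mean in spring.

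For fertility class, 0 of 9 passed (0.00327% of all probe sets) and 0 had an unadjusted p under 0.05 (2.59% of all probe sets). Low fertility had the higher mean for 5 genes and the lower for 4, with a median difference of 0.04, against 0.05 over all probe sets, of which 60.6% were higher in low fertility. For the interaction, again 0 of 9 passed (0.00327%) and 0 reached an unadjusted p under 0.05 (3.79%). The 9 estimates, 4 positive and 5 negative, had a median of -0.03, against -0.07 over all probe sets, of which 43.6% were positive. In 0 of the 9 genes did spring and autumn, or low and high fertility, separate without overlap (0.762% and 0.353% of all probe sets).

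**Figure D2:**
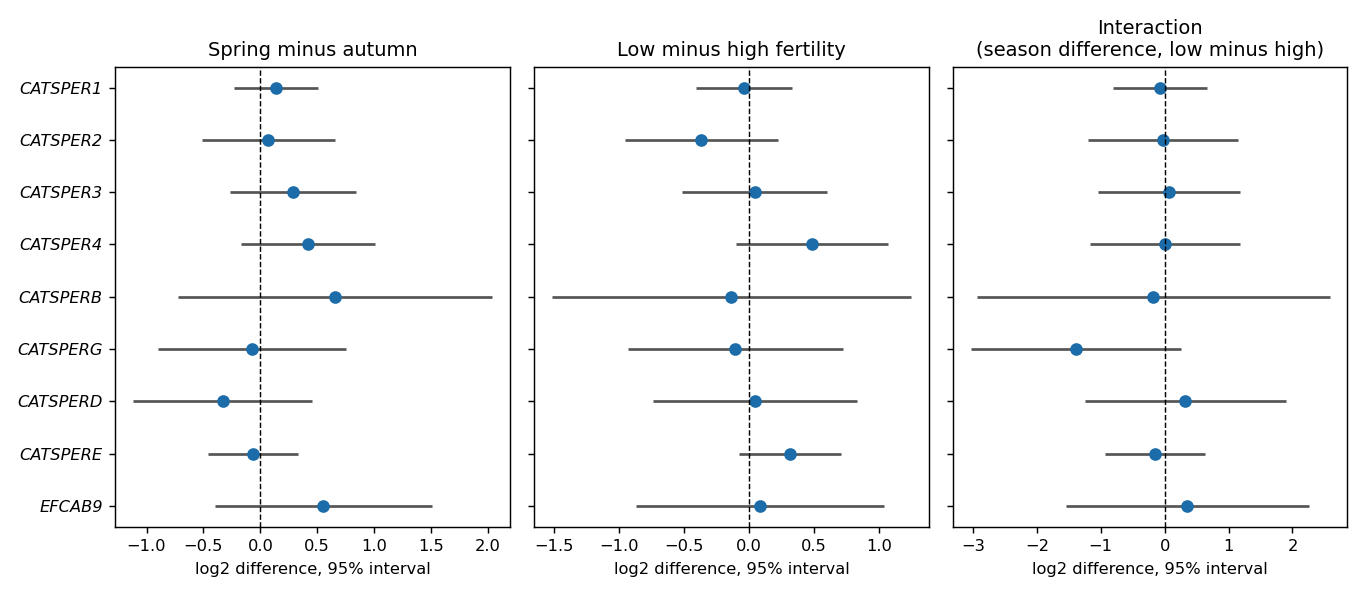
Differences of log2 signal with 95% intervals (horizontal axes, each panel on its own scale) for the 9 CatSper genes: spring minus autumn, low minus high fertility, and the interaction. Every interval includes 0, and CATSPERB has the widest in all 3 panels.

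The array-wide signal moved with some of these genes. Averaged over the 9 genes, the log2 signal lay between 5.58 and 5.66 for stallions 2, 9 and 10, and between 5.80 and 6.43 for the rest. CATSPERB averaged 5.54 in these 3 stallions and 6.93 in the other 7, CATSPERG 7.56 and 8.34, CATSPERD 5.73 and 6.38, EFCAB9 4.97 and 5.58, and CATSPER3 5.95 and 6.51. CATSPERE, near the floor, averaged 4.12 and 4.46. CATSPER4 averaged 5.85 and 5.88 and CATSPER1 5.13 and 5.19, nearly level, and CATSPER2 averaged 5.66 and 5.44, higher in the 3. Ranges of the 3 and the 7 overlapped for each of the 9 genes, whereas 12.1% of all probe sets had no overlap between them. The part of the array-wide signal in the differences between stallions was not tested.

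**Figure D3:**
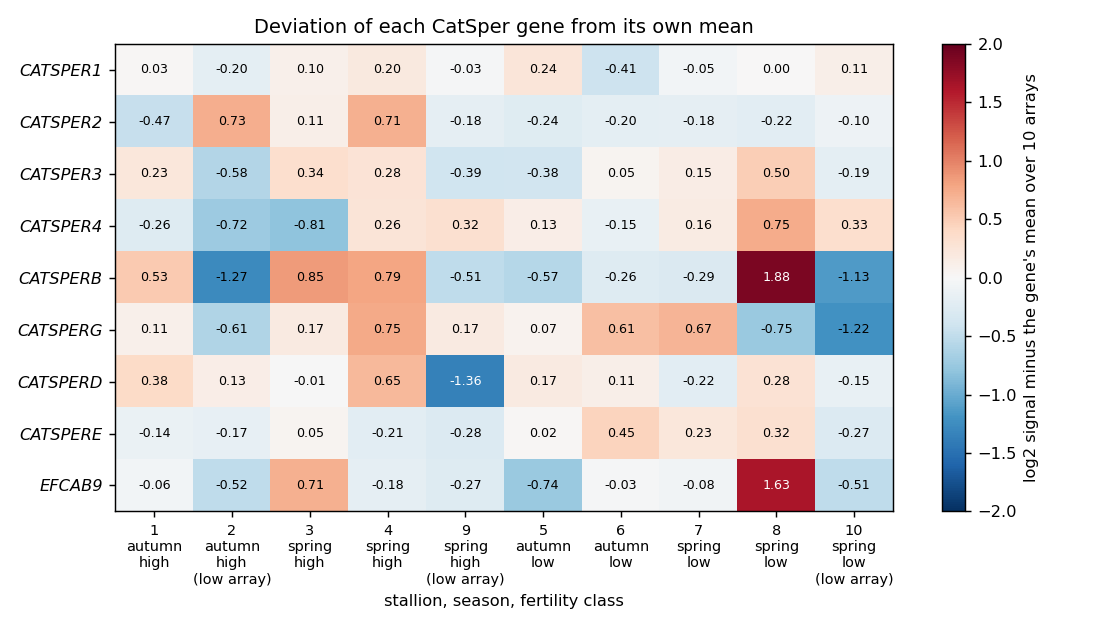
Log2 signal of each CatSper gene minus its own mean over the 10 arrays (colour and printed value), with stallions in columns by group. CATSPERB, CATSPER3 and EFCAB9 share the high values of stallions 3 and 8, while CATSPER2 and CATSPERG follow other orders.

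Whether members varied together was asked over the 10 stallions, for 36 pairs of genes. Pearson's r was positive in 25 pairs and negative in 11, with a median of 0.175, so the 9 genes did not share 1 order of stallions. After Benjamini-Hochberg adjustment over the 36 pairs, 3 pairs passed (two-sided permutation test, 100000 resamples), and these joined CATSPERB, CATSPER3 and EFCAB9 with each other.

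CATSPERB and CATSPER3 had r = 0.891 (permutation p = 0.00065, adjusted p = 0.0131) and Spearman's rho = 0.939 (permutation p = 0.00022, adjusted p = 0.00792). Without the 2 stallions farthest from the median of CATSPER3, r was 0.887. These were stallions 2 and 9, and stallion 8, the highest for CATSPERB and EFCAB9, was kept. CATSPERB and EFCAB9 had r = 0.86 (permutation p = 0.00073, adjusted p = 0.0131) and rho = 0.879 (permutation p = 0.00138, adjusted p = 0.0248), with r = 0.64 without the 2 farthest for CATSPERB. The weakest of the 3 pairs, CATSPER3 and EFCAB9, had r = 0.774 (permutation p = 0.00325, adjusted p = 0.039) and rho = 0.83 (permutation p = 0.00454), with adjusted p = 0.0545 for rho, so that it did not pass by rank, and with r = 0.836 without the 2 farthest for CATSPER3.

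Within the 7 arrays left without stallions 2, 9 and 10, r was 0.862, 0.868 and 0.815 for these pairs in the same order, with exact permutation p = 0.0135, 0.00714 and 0.0409, none past the threshold after adjustment (adjusted p = 0.243, 0.243 and 0.368). With each array's median subtracted, r was 0.789, 0.815 and 0.774, and again none passed (each adjusted p = 0.122, permutation test). Without stallion 8, r was 0.873, 0.735 and 0.762, and the adjusted p were 0.112, 0.189 and 0.165 (exact permutation test). With group means subtracted, r was 0.893, 0.873 and 0.729, with adjusted p = 0.0162, 0.0176 and 0.0999 (permutation test, which takes no account of the means having been fitted). With each stallion left out in turn, the pairs passed in 9, 8 and 3 of the 10 omissions.

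Of 16657 other genes, 1.92% had an r with CATSPERB at least as high as CATSPER3 had, and 3.15% at least as high as EFCAB9 had. Seen from the other side, 0.3% of genes had an r with CATSPER3 at least as high as CATSPERB had, and 0.576% an r with EFCAB9 at least as high as CATSPERB had. For CATSPER3 and EFCAB9, 4.97% of genes reached that r with CATSPER3 and 2.28% with EFCAB9. The mean of the sperm markers was also highest in stallion 8, at 11.30, and lowest in stallions 2, 9 and 10, and its part in these correlations was not tested.

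**Figure D4:**
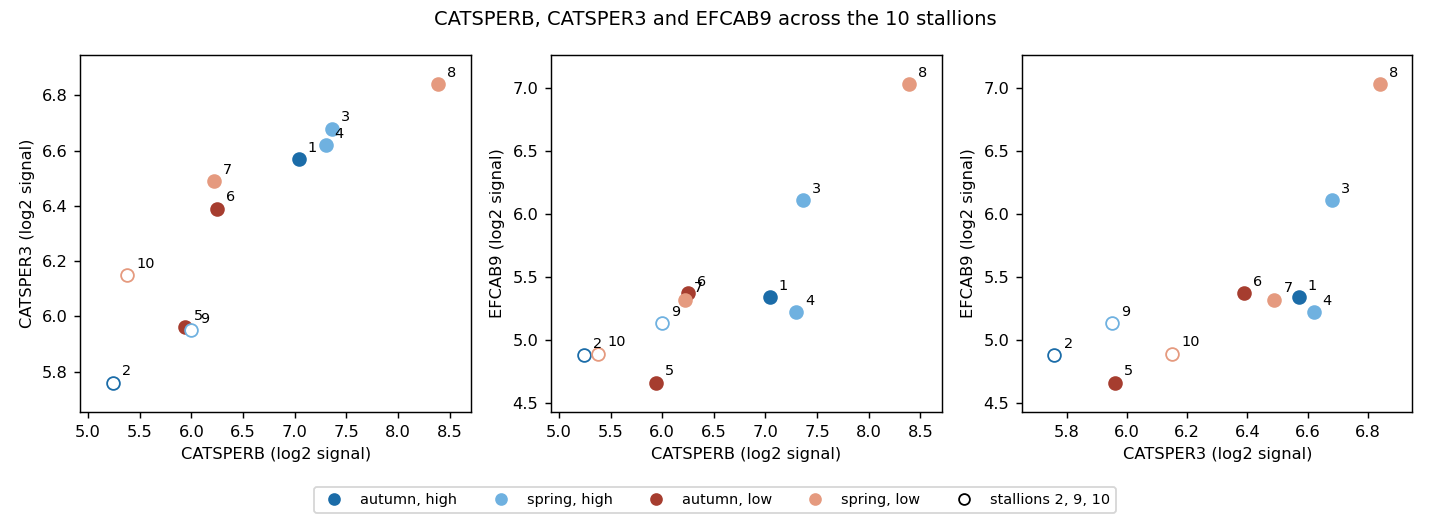
Log2 signals of CATSPERB, CATSPER3 and EFCAB9 against each other, 1 point per stallion with its number, coloured by season and fertility group, open for stallions 2, 9 and 10. Stallion 8 is highest on all axes. Each axis has its own scale, and that of EFCAB9 is stretched by stallion 8 at 7.03.

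Stallion 8 was highest in 4 of the 9 genes, against 12.4% of all probe sets on which this array alone was highest; this animal was singled out after the values were seen.

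The genes most like CATSPERB, the member with the largest SD, were found by the root mean square difference over the 10 arrays after each gene's own mean was removed. Among 16660 other genes the closest was CCPG1, a receptor gene for turnover of the endoplasmic reticulum, at 0.26 log2 units. RASSF8 stood at 0.26, ATG3, an autophagy enzyme gene, at 0.27, FAM161A, a gene of cilia and the microtubule cytoskeleton, at 0.27, and PALS2, a scaffold protein gene, at 0.27. The median over all genes was 0.92. Values were not scaled, so the measure takes in the size of the differences between stallions as well as their order. A gene that did not vary would stand near CATSPERB's own SD of 0.99, so the median reflects that SD in part. Within the CatSper family EFCAB9 ranked 388th with 0.50, CATSPER3 1071st with 0.65 and CATSPER2 14608th with 1.06. CATSPER3 had the higher r with CATSPERB (0.891 against 0.86 for EFCAB9) but the smaller SD (0.36 against 0.70).

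**Figure D5:**
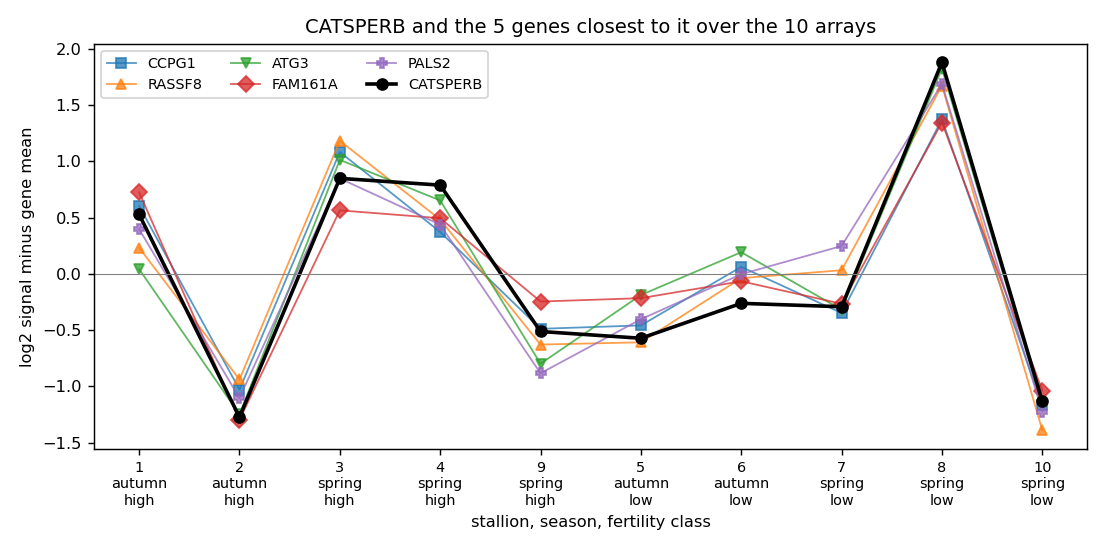
Log2 signal minus the gene's own mean (vertical axis) of CATSPERB and the 5 genes closest to it, across the 10 stallions ordered by group. All 6 lines are lowest in stallions 2 and 10 and highest in stallion 8.

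Other genes around the channel were taken from lists of the complex and its control. Of 8 symbols for further parts of the complex 2 were measured. C2CD6, which in mouse sperm encodes a subunit needed to place the channel in the tail, stood at 6.66 and 5.95 in the autumn-high group, 6.99, 7.02 and 6.59 in the spring-high group, 6.52 and 6.44 in the autumn-low group, and 7.06, 7.33 and 6.01 in the spring-low group. Stallion 8 was highest and stallion 2 lowest, as for CATSPERB and CATSPER3, and stallion 8 alone was highest on 12.4% of all probe sets. Its season difference was 0.44 (SE 0.28) and its fertility difference 0.05 (SE 0.28), both with limma adjusted p = 1.

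TRIM69, a ubiquitin ligase gene, stood at 6.78 and 5.91 in the autumn-high group and at 7.62 and 7.31 in the autumn-low group. In spring it stood at 7.03, 6.52 and 7.43 with high and at 6.89, 6.24 and 7.18 with low fertility. Stallion 2 was lowest here too, but stallion 8, at 6.24, stood next to it. By root mean square difference from CATSPERB, C2CD6 ranked 796th and TRIM69 16154th, so the 2 genes did not share 1 order of stallions. Taken over all 10 stallions, low and high fertility overlapped. The interaction was -1.34 (SE 0.55, unadjusted p = 0.0363, limma adjusted p = 1).

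Of 15 genes that control the channel or the alkalinity and membrane potential on which it depends, 14 were measured, and 0 passed in any of the 3 comparisons. An unadjusted p under 0.05 was found for 1 gene by season, 0 by fertility class and 1 for the interaction, where 1 gene is 7.14% of the list. Over all probe sets the shares were 4.18%, 2.59% and 3.79%. The median differences were -0.04, 0.01 and -0.44, against -0.05, 0.05 and -0.07 over all probe sets. SLC9A8, a sodium-proton exchanger gene, had the smallest p for season, -1.16 (SE 0.32, unadjusted p = 0.00606, limma adjusted p = 1). Its values were 7.13 and 5.96 in the autumn-high group, 5.88, 6.87 and 5.37 in the spring-high group, 7.55 and 7.86 in the autumn-low group and 5.81, 6.11 and 5.75 in the spring-low group. Taken over both fertility classes, autumn and spring overlapped. SLC9A8 averaged 5.69 in stallions 2, 9 and 10, of which 2 are spring arrays, and 6.74 in the other 7, with overlapping ranges. The part of the array-wide signal in its season difference was not tested.

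KCNU1, the gene of the alkalinity-activated potassium channel SLO3, which sets the membrane potential of sperm, showed a related order. Its values were 6.02 and 5.29, then 5.99, 6.62 and 4.88, in high fertility in autumn and spring, and 6.74 and 7.46, then 5.41, 5.80 and 5.08, in low fertility. Autumn low-fertility stallions were the 2 highest of all. The interaction of -1.845 (SE 0.70, unadjusted p = 0.0273) and the season difference of -0.75 (SE 0.35, unadjusted p = 0.0617) both had adjusted p = 1 in limma. KCNU1 also separated stallions 2, 9 and 10, at 4.88 to 5.29, from the other 7, at 5.41 to 7.46, without overlap, as 12.1% of all probe sets did, and 2 of the 3 are spring arrays. The part of the array-wide signal in its differences was not tested.

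The remaining genes named by the rule from this list did not pass either (all limma adjusted p = 1). SLC9C1, the sperm-specific sodium-proton exchanger gene, had a season difference of -0.40 (SE 0.24), ADCY10, the soluble adenylyl cyclase gene, a fertility difference of 0.29 (SE 0.18), and CA2, a carbonic anhydrase gene, an interaction of -0.775 (SE 0.47).

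Of 25 genes of sperm calcium handling, 20 were measured, with 0 past the threshold and 0 with an unadjusted p under 0.05 in each of the 3 comparisons. Over all probe sets, 4.18%, 2.59% and 3.79% had such an unadjusted p for season, fertility class and the interaction. Their median difference was -0.06 by season and 0.16 by fertility class, and their median interaction was -0.11. CALR, a calcium-storing chaperone gene of the endoplasmic reticulum, was at 0.68 (SE 0.43) for fertility, and PPP3CC, the sperm calcineurin catalytic subunit gene, at 0.32 (SE 0.21). CAMK2G, a calmodulin-dependent kinase gene, was at 0.195 (SE 0.19) for fertility. For season, the inositol trisphosphate receptor gene ITPR3 was at -0.335 (SE 0.20), the calcium pump gene ATP2A2 at -0.325 (SE 0.21) and the cation channel gene TRPC6 at -0.18 (SE 0.14). For the interaction, ATP2A2 was at -0.84 (SE 0.42), PPP3CC at -0.805 (SE 0.43) and MCU, the mitochondrial calcium uniporter gene, at -0.79 (SE 0.43). All of these had adjusted p = 1 in limma. PPP3CC (5.38 to 5.78 against 5.84 to 6.44) and MCU (4.39 to 4.94 against 4.96 to 5.56) likewise lay lower in stallions 2, 9 and 10 than in the other 7.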

How the data were processed

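The authors deposited 1 log2 signal for each probe set and array, with 2 decimals and a floor of 4. GCOS 1.1.1 and Affymetrix Expression Console 1.1 are named in the submitters' processing notes without their roles, and neither the labels nor the file say how probes were summarised, background-corrected or scaled. Array medians differed, and the values were used as deposited. Gene symbols came from GEO's annotation of the platform and can be old.

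With limma 3.58.1 in R 4.3.3, a linear model of the 4 group means was fitted to all 30559 probe sets, with 6 residual degrees of freedom and 2.96 prior ones. The season difference is averaged over fertility classes, the fertility difference over seasons, and the interaction is the season difference in low minus that in high fertility. P-values are two-sided, moderated by eBayes and adjusted over all probe sets by Benjamini-Hochberg. No column marks control probe sets, so none was left out. The fit was tested on simulated arrays with known changes. It missed most of the smallest changes and found interactions least often, so a gene that did not pass need not be unchanged. The number of arrays limits the precision.

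All measured members were named. From the lists of channel control and calcium handling, the 3 genes with the smallest unadjusted p in each comparison were named, and both measured genes of the complex list. The members and lists were chosen with earlier results of these data known. Correlations and their alternatives were added after the values were seen. Alternatives were quantile normalization, subtraction of array medians, a filter on low means, no moderation, no interaction term, stallion 9 in autumn, and leaving out stallions 2, 9 and 10 or each stallion in turn.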

Additional observations from a re-analysis of the deposited data

Results flagged for a closer look

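In each of the 9 genes, the highest and the lowest stallion were set against their neighbours over all 10 stallions and within each season and each fertility class, 45 sets in all, of which 3 held a stallion far from the others. The rule was Dixon's ratio, the gap to the neighbour divided by the range of the set, held against a critical value. Chance alone flags about 5% of such sets. CATSPERD in stallion 9 stood at 4.83 while the next lowest of the 10 stood at 5.97 (ratio 0.567, critical value 0.466). CATSPERB in stallion 8 stood at 8.39 while the next highest low-fertility stallion stood at 6.25. Its ratio of 0.711 barely passed the critical value of 0.71. CATSPER2 in stallion 4 stood at 6.22 while the next highest spring stallion stood at 5.62 (ratio 0.645, critical value 0.625). Stallion 2 of autumn stood at 6.24.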

How the results depend on the processing

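In each of the 17 alternatives for season and fertility and the 16 for the interaction, 0 CatSper genes passed. The median difference over the genes ran from 0.08 to 0.285 for season, from -0.145 to 0.1975 for fertility and from -0.26 to 0.24 for the interaction. Signs of single genes changed as follows, none past the threshold. With array medians subtracted, the interaction was 0.012 for CATSPER1 and 0.052 for CATSPER2, the fertility difference -0.011 for CATSPER3 and -0.0067 for CATSPERD, and the season difference 0.00083 for CATSPERE. Quantile normalization gave interactions of 0.011 for CATSPER1 and 0.086 for CATSPER2 and fertility differences of -0.029 for CATSPER3 and -0.0093 for CATSPERD. With stallion 9 in autumn, fertility was -0.0375 for CATSPER3 and -0.01 for EFCAB9, the interaction -0.24 for CATSPER3 and -0.77 for CATSPERD, and season 0.22 for CATSPERD. Without stallions 2, 9 and 10, fertility was -0.19 for CATSPER3 and -0.265 for CATSPERD, the interaction 0.92 for CATSPERB and -0.05 for CATSPERD, and season 0.05 for CATSPERE. The cause was not tested.

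With 1 stallion left out at a time (where a group is left with 1 array, it is assumed to vary like the others), the season difference ran from -0.0225 to 0.30 for CATSPER1, -0.23 to 0.37 for CATSPER2, -0.17 to 0.041 for CATSPERE and -0.35 to 0.12 for CATSPERG. Fertility ran from -0.1975 to 0.1275 for CATSPER1, -0.16 to 0.25 for CATSPER3, -0.58 to 0.32 for CATSPERB, -0.23 to 0.27 for CATSPERD, -0.38 to 0.093 for CATSPERG and -0.24 to 0.30 for EFCAB9. Among differences that kept their sign in these omissions, season ran from 0.0825 to 0.4875 for CATSPER3, 0.30 to 0.60 for CATSPER4 and 0.21 to 1.11 for CATSPERB. It ran from -0.555 to -0.0525 for CATSPERD and from 0.23 to 0.77 for EFCAB9. Fertility differences that kept their sign ran from -0.665 to -0.065 for CATSPER2, 0.30 to 0.60 for CATSPER4 and 0.21 to 0.42 for CATSPERE. The CATSPERG interaction ran from -1.94 to -0.99 and also kept its sign. The interaction ran from -0.395 to 0.255 for CATSPER1, -0.63 to 0.57 for CATSPER2, -0.34 to 0.47 for CATSPER3, -0.36 to 0.24 for CATSPER4, -1.08 to 0.72 for CATSPERB, -0.235 to 0.77 for CATSPERD, -0.365 to 0.065 for CATSPERE and -0.29 to 0.78 for EFCAB9.

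Of the 36 correlations, 3 passed as reported, 0 with array medians subtracted, 0 without stallions 2, 9 and 10, and 0 to 3 with 1 stallion left out, 0 without stallion 8 and 1 without stallion 3. The mean of several probe sets per gene was not run because each gene had 1, and the filter on low means removed CATSPER1 and CATSPERE. The uncertain season label of stallion 9 and groups of 2 or 3 animals limit these results.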
